A study of Mus musculus with 6 samples.

Results

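The Cyp4a and Cyp4f genes encode cytochrome P450 enzymes that hydroxylate the terminal (omega) carbon of fatty acids, and this account covers 10 of them in the liver of mice on a high-fat diet. The members were chosen by name: Cyp4a10, Cyp4a14, Cyp4a31, Cyp4a32, Cyp4a12a, Cyp4a12b, Cyp4f13, Cyp4f14, Cyp4f15 and the related Cyp4v3. They make up 10 of the 46095 gene symbols in the deposited table. Each was measured in 6 RNA-seq libraries, 3 from ARRB1 knockout (KO) mice and 3 from wild-type (WT) mice. All mice were C57BL/6 and both groups had received the high-fat diet for 26 weeks. The labels name liver as the tissue and hepatocyte as the cell type. The sources used here state neither how the knockout allele was made nor the sex of the mice. Group membership follows the sample titles. The genotype labels of KO replicates 2 and 3 read ARRB2-/- and ARRB3-/-, against ARRB1-/- for KO replicate 1. The labels do not state that replicates are separate animals, so each p-value reflects variation among these 6 libraries only, which may be technical.

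Omega-hydroxylation is the first step of a side route of fatty acid breakdown. The microsomal Cyp4 enzymes add a hydroxyl group, alcohol and aldehyde dehydrogenases oxidise it to a second acid group, and the resulting dicarboxylic acids are shortened in peroxisomes. In mouse liver, Cyp4a10 and Cyp4a14 are classical targets of PPAR-alpha, the nuclear receptor that senses fatty acids. Cyp4a12a and Cyp4a12b are expressed mainly in males, and Cyp4f enzymes also hydroxylate leukotrienes and other eicosanoids.

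Several of these genes are near-identical copies lying side by side, which bears on how their reads can be told apart. In the GENCODE vM21 annotation of GRCm38, the 6 Cyp4a members lie within 322.6 kb of chromosome 4 (115299046 to 115621602). The 3 Cyp4f members lie within 261.8 kb of chromosome 17 (32685627 to 32947402), and Cyp4v3 lies on chromosome 8 (45304944 to 45333216). The annotated coding sequence of Cyp4a32 was 97.2% identical to that of Cyp4a10, with 43 mismatches over 1530 bases. Cyp4a31 was 96.6% identical to Cyp4a10, with 52 mismatches. Cyp4a14, their neighbour on the opposite strand, was only 75.2% identical to Cyp4a10. The first 90 coding bases show the contrast between close copies and a distinct gene. Capitals mark the bases that differ from Cyp4a10, counting 1 in Cyp4a32, 5 in Cyp4a31 and 34 in Cyp4a14. The stretches lie at chr4:115518322-115518411 (Cyp4a10, plus strand), chr4:115600975-115601064 (Cyp4a32, plus strand), chr4:115563717-115563806 (Cyp4a31, plus strand) and chr4:115496024-115496113 (Cyp4a14, minus strand) of GRCm38, in coding exons, and are given 5′ to 3′.
Cyp4a10: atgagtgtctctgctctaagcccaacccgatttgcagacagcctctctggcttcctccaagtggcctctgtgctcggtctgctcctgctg
Cyp4a32: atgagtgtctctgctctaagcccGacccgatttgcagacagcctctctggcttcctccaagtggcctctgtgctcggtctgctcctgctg
Cyp4a31: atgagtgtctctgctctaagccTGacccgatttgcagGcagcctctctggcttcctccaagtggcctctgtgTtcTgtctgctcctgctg
Cyp4a14: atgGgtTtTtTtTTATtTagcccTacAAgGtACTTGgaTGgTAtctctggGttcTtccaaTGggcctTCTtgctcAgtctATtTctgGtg

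Cyp4a12a and Cyp4a12b were the closest pair, 98.5% identical over 1527 coding bases with 23 differences. The longest coding stretch without a difference, counting those at either end, was 342 bases, and the first 90 coding bases were the same in both. The 90-base window with the most differences, coding bases 661 to 750, held 7. It is shown because reads over such bases separate the copies. Capitals mark the differing bases, at chr4:115326659-115326748 for Cyp4a12a and chr4:115432912-115433001 for Cyp4a12b, both on the plus strand of GRCm38 and in coding exons.
Cyp4a12a: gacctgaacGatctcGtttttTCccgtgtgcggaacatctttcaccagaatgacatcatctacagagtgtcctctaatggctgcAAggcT
Cyp4a12b: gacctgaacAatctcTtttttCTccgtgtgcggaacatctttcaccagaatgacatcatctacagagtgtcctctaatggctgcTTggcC

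Of all 100-base stretches of the transcript, 35.8% in Cyp4a12a and 36.2% in Cyp4a12b occurred exactly in the other copy. The share of 100-base stretches found in another Cyp4 gene was 20.1% in Cyp4a32, 12.7% in Cyp4a10 and 8.22% in Cyp4a31. It was 0% in Cyp4a14, Cyp4f13, Cyp4f14, Cyp4f15 and Cyp4v3. For 50-base stretches the shares were larger, at 46.8% in Cyp4a32, 30.5% in Cyp4a10, 20.1% in Cyp4a31, 48.9% in Cyp4a12a and 49.45% in Cyp4a12b. They were 2.70% in Cyp4f13, 2.97% in Cyp4f14, 2.45% in Cyp4f15, 0.245% in Cyp4a14 and 0% in Cyp4v3. These shares are for GENCODE transcripts, which can differ from the gene models behind the deposited values. For Cyp4a32 the transcript had 1530 bases and the deposited values implied 1914. For Cyp4v3 these were 3808 and 2930 bases. Values of the single Cyp4a10, Cyp4a31, Cyp4a32, Cyp4a12a and Cyp4a12b copies are therefore uncertain, and sums over the copies are given beside them. The sources used here do not give the authors' handling of reads that match several genes. The deposited values of every member were whole multiples of the value of 1 read in each library, to within 7.4e-06 reads.

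Levels are given in FPKM, fragments scaled to gene length and to library depth. From the steps between the deposited values, KO replicate 1 was the shallowest library, with an estimated 13.9 M fragments, and the other 5 held 27.9 to 35.1 M. Arrb1 itself, the gene targeted in the knockout, had 0.918, 1.05 and 1.16 FPKM in KO libraries, against 3.86, 22.7 and 16.9 FPKM in WT libraries. The groups did not overlap, and Arrb1 fell by 2.64 on the log2 scale (SE 0.514, limma adjusted p = 0.0275). That call was lost without any 1 of KO replicates 1, 2 and 3 and WT replicates 2 and 3, with adjusted p up to 0.1 in limma. It was also lost with robust variance moderation (adjusted p = 0.0769) and without the filter on low values (adjusted p = 0.117). Without WT replicate 1, the lowest WT library for Arrb1, the log2 fold change was -3.335 (limma adjusted p = 0.0011).

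All 10 members passed the filter of a mean of at least 1 FPKM. Differences were tested with limma on log2(FPKM + 1) across 10633 genes, and a gene was called at a Benjamini-Hochberg adjusted p under 0.05. Of the 10 members, 2 rose in KO livers (Cyp4a10 and Cyp4a14), beside 5.30% of all tested genes. A single member, Cyp4f14, fell, beside 1.60% of all tested genes, and calls in either direction made up 6.90% of all tested genes. The other 7 were not called. At an unadjusted p under 0.05, 2 of the 10 were higher, beside 19.1% of all tested genes, and 3 were lower, beside 6.19%. KO libraries were all above WT libraries for 2 members, beside 23.4% of tested genes, and all below for 1, beside 7.81%. The median log2 fold change was -0.10 over the 10 members and 0.07 over all tested genes.

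**Figure D1:**
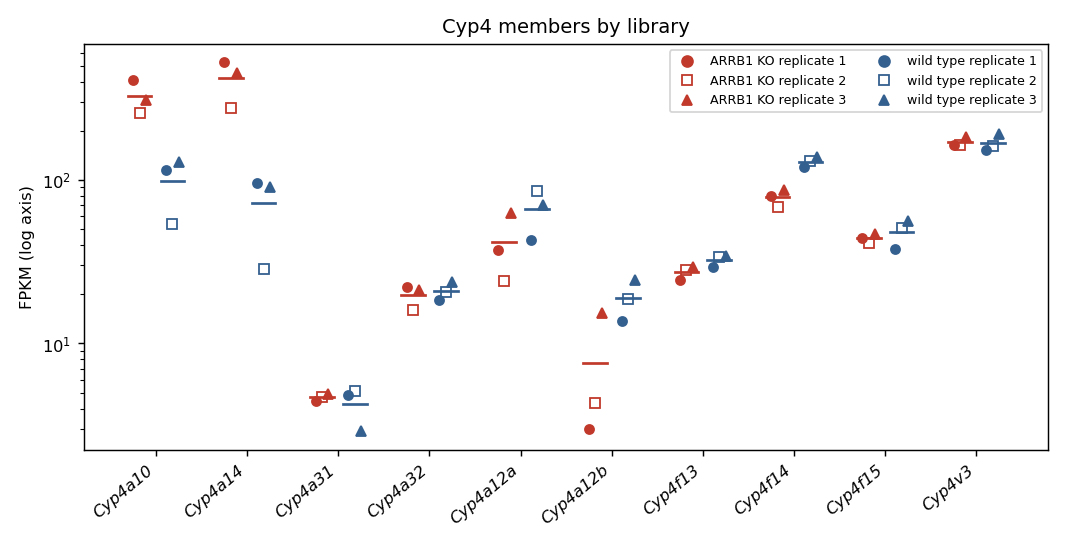
FPKM of each member (log axis) in the 3 ARRB1 KO libraries (red) and the 3 WT libraries (blue), with 1 symbol per replicate and a bar at each group mean. KO and WT libraries separate for Cyp4a10 and Cyp4a14 (KO above) and for Cyp4f14 (KO below), and overlap for the other 7.

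Cyp4a14, the fatty acid omega-hydroxylase known as a sensitive PPAR-alpha target in mice, showed the largest difference of the 10. Its level was 523.5, 277 and 454 FPKM in KO replicates 1 to 3, against 96.2, 28.7 and 90.5 FPKM in WT replicates 1 to 3. The lowest KO library was above the highest WT library. The mean was 418 ± 127 FPKM in KO livers and 71.8 ± 37.4 FPKM in WT livers (SD, n = 3 each). The log2 fold change was 2.66 (SE 0.454, 95% interval 1.60 to 3.71, limma adjusted p = 0.0192), a 6.31-fold difference on the log2(FPKM + 1) scale. Behind these values stood 18163, 24252 and 33025 recovered reads in KO libraries and 7996, 1998 and 6845 in WT libraries. Among all genes of a library, Cyp4a14 ranked 108, 196 and 123 in KO livers, against 595, 1759 and 675 in WT livers. WT replicate 2 was the low one of its group. The limma call was lost without KO replicate 2 (adjusted p = 0.05004) and without KO replicate 3 (adjusted p = 0.0528), and also with robust variance moderation (adjusted p = 0.0578) and without the filter on low values (adjusted p = 0.0909).

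Cyp4a10, the second PPAR-alpha-responsive omega-hydroxylase, moved in the same direction. It had 411, 258 and 308 FPKM in KO livers, against 115, 54.0 and 129 FPKM in WT livers, again without overlap. The means were 325.5 ± 78.3 FPKM in KO livers and 99.2 ± 39.7 FPKM in WT livers (SD, n = 3 each). WT replicate 2 was again the lowest WT library. The log2 fold change was 1.77 (SE 0.322, 95% interval 1.02 to 2.52, limma adjusted p = 0.0224). The limma adjusted p was 0.0529 without KO replicate 1, 0.0638 without KO replicate 2, 0.056 without KO replicate 3 and 0.1003 without the filter. In each of these the fold change stayed positive.

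The near-identical copies of Cyp4a10 did not differ detectably by genotype. Cyp4a32 had 22.1, 16.1 and 21.1 FPKM in KO livers, against 18.6, 20.7 and 23.7 FPKM in WT livers. Cyp4a31 had 4.43, 4.73 and 4.88 FPKM in KO livers, against 4.83, 5.10 and 2.90 FPKM in WT livers. In both genes the groups overlapped. The 95% interval of the log2 fold change ran from -0.41 to 0.24 for Cyp4a32 (limma adjusted p = 0.741) and from -0.26 to 0.53 for Cyp4a31 (limma adjusted p = 0.668). Cyp4a31 rested on 155 to 417 reads per library. Both intervals lie below the lower bound of the Cyp4a10 interval, 1.02.

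Summed over Cyp4a10, Cyp4a31 and Cyp4a32, so that reads moved between copies leave the total unchanged apart from gene length, the level was 438, 278 and 334 FPKM in KO livers, against 138, 79.8 and 155 FPKM in WT livers. The sum rose by 1.52 on the log2 scale (SE 0.263, 95% interval 0.91 to 2.13, limma adjusted p = 0.0198). An exact two-sided permutation test gave p = 0.1, the smallest that 3 against 3 libraries allow. The limma call on the sum was lost without KO replicate 2 (adjusted p = 0.0525), without KO replicate 3 (adjusted p = 0.0506) and without the filter (adjusted p = 0.0901).

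The male-biased pair lay on the other side of 0. Cyp4a12a, a main arachidonic acid omega-hydroxylase of male mice, had 37.4, 24.0 and 63.1 FPKM in KO livers, against 42.7, 85.7 and 70.6 FPKM in WT livers. Cyp4a12b, its copy, had 3.003, 4.34 and 15.4 FPKM in KO livers, against 13.6, 18.7 and 24.4 FPKM in WT livers. In both, KO replicate 3 was the highest KO library and lay above WT replicate 1, so the groups overlapped. The log2 fold change of Cyp4a12a was -0.71 (SE 0.361, 95% interval -1.55 to 0.12, limma adjusted p = 0.26). That of Cyp4a12b was -1.46 (SE 0.483, 95% interval -2.58 to -0.34, limma adjusted p = 0.113). Neither passed the test. Without KO replicate 3, Cyp4a12b was called lower (log2 fold change -2.07, limma adjusted p = 0.00867).

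Over the pair, the summed level was 40.4, 28.3 and 78.5 FPKM in KO livers, against 56.3, 104 and 95.1 FPKM in WT livers. The log2 fold change of the sum was -0.86 (SE 0.369, 95% interval -1.72 to -0.01, limma adjusted p = 0.195), which did not pass the test. Cyp4a12b was covered by 100, 364 and 1078 reads in KO libraries and 1088, 1249 and 1772 in WT libraries. The ratio of Cyp4a12a to Cyp4a12b was 12.5, 5.53 and 4.09 in KO livers, against 3.13, 4.59 and 2.89 in WT livers. These overlapped, with an exact permutation p of 0.2.

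**Figure D2:**
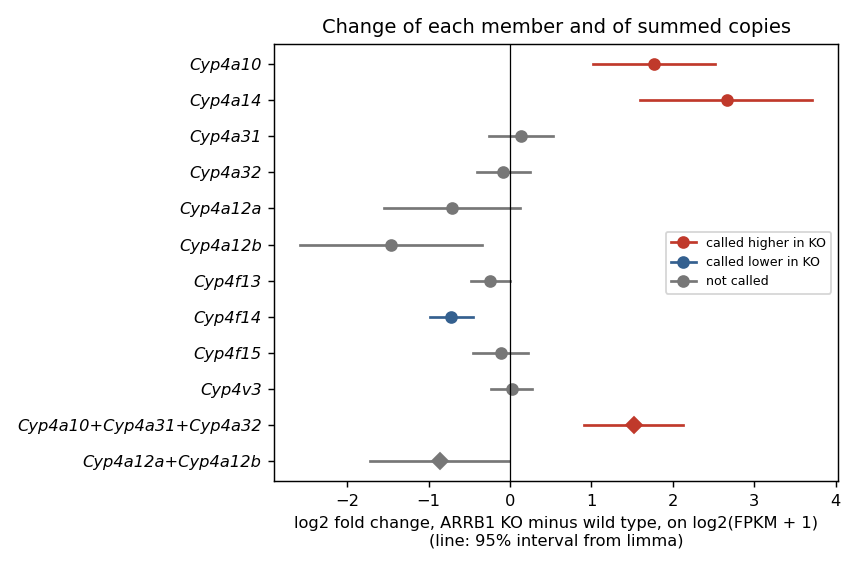
Log2 fold change, ARRB1 KO minus WT, on log2(FPKM + 1) for each member (circles) and for the summed copies (diamonds), with 95% intervals from limma. Cyp4a14 (2.66), Cyp4a10 (1.77) and the Cyp4a10, Cyp4a31 and Cyp4a32 sum (1.52) were called higher in KO and Cyp4f14 (-0.72) lower.

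Among the Cyp4f members, Cyp4f14, a leukotriene B4 omega-hydroxylase of mouse liver, was the one that fell. Its level was 79.3, 68.5 and 86.8 FPKM in KO livers, against 119, 131 and 137 FPKM in WT livers. The highest KO library lay below the lowest WT library, and the spread within either group was small, with means of 78.2 ± 9.17 FPKM in KO livers and 129 ± 9.19 FPKM in WT livers (SD, n = 3 each). Cyp4f14 fell by 0.72 on the log2 scale (SE 0.111, 95% interval -0.98 to -0.46, limma adjusted p = 0.0148), a fold of 0.607. The limma adjusted p was 0.0521 without KO replicate 2, 0.0584 without WT replicate 2 and 0.0557 without the filter.

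Cyp4f13 had 24.5, 28.0 and 29.5 FPKM in KO livers, against 29.3, 33.7 and 34.4 FPKM in WT livers. Cyp4f15 had 44.3, 41.2 and 46.7 FPKM in KO livers, against 37.9, 51.0 and 56.1 FPKM in WT livers. The groups overlapped in both. The 95% interval of the log2 fold change ran from -0.48 to 0.00 for Cyp4f13 (limma adjusted p = 0.195) and from -0.45 to 0.22 for Cyp4f15 (limma adjusted p = 0.668). The 3 genes are distinct in sequence, with coding identities of 78.2% between Cyp4f13 and Cyp4f14, 80.0% between Cyp4f14 and Cyp4f15 and 74.3% between Cyp4f13 and Cyp4f15.

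Cyp4v3, the mouse counterpart of the human fatty acid hydroxylase CYP4V2, had 163, 163 and 184 FPKM in KO livers, against 153, 162 and 190 FPKM in WT livers. Its mean was 170 ± 11.8 FPKM in KO livers and 168 ± 19.1 FPKM in WT livers (SD, n = 3 each). The 95% interval of its log2 fold change, -0.23 to 0.27, was centred near 0 (0.02, limma adjusted p = 0.934). It shared no exact 50-base stretch with another Cyp4 gene.

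The genotypes differed in which member led the family. By mean FPKM, the order in KO livers began with Cyp4a14, Cyp4a10, Cyp4v3 and Cyp4f14, and in WT livers with Cyp4v3, Cyp4f14, Cyp4a10 and Cyp4a14. In KO livers Cyp4a14 and Cyp4a10 lay within each other's spread. In WT livers the spreads of Cyp4a10, Cyp4a14 and Cyp4a12a (66.4 ± 21.8 FPKM) overlapped. Cyp4a14 made up on average 36.2% of the summed FPKM of the 10 members in KO livers and 10.7% in WT livers. Cyp4a10 made up 28.6% in KO livers and 14.8% in WT livers. The share of Cyp4f14 was 6.98% in KO livers and 19.7% in WT livers, and that of Cyp4v3, whose level was close in both groups, was 15.3% in KO livers and 25.6% in WT livers.

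The 10 members together summed to 1313, 885 and 1213 FPKM in KO livers, against 630.5, 590.2 and 758 FPKM in WT livers, a ratio of the means of 1.72. The 6 Cyp4a members summed to 1002, 584 and 866 FPKM in KO livers, against 291, 213 and 341 FPKM in WT livers. The 3 Cyp4f members summed to 148, 138 and 163 FPKM in KO livers, against 186, 216 and 228 FPKM in WT livers. None of these sums overlapped between the groups, and each gave the smallest possible exact permutation p, 0.1. Among single tested genes, KO libraries were all above WT libraries in 23.4% and all below in 7.81%. Taken singly, only Cyp4a10 and Cyp4a14 (KO above) and Cyp4f14 (KO below) did not overlap. The sums therefore do not show that whole subfamilies shifted. These are sums per length and depend on the gene lengths the authors used.

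**Figure D3:**
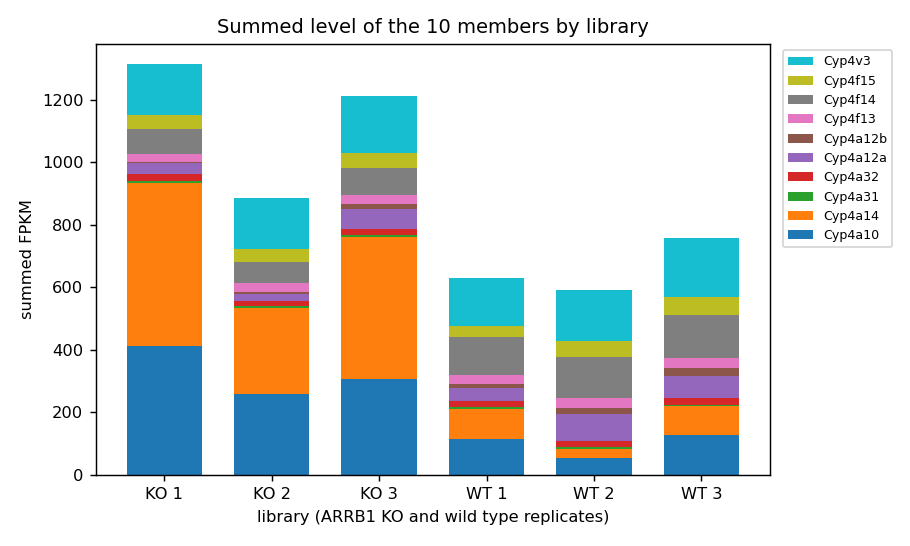
FPKM summed over the 10 members in each library, with ARRB1 KO replicates on the left, WT replicates on the right and 1 colour per member. The totals are 885 to 1313 FPKM in KO and 590.2 to 758 FPKM in WT, and the Cyp4a10 and Cyp4a14 segments are larger in every KO library than in any WT library.

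Ratios between members within a library do not depend on scaling between libraries. The sum of Cyp4a10, Cyp4a14, Cyp4a31 and Cyp4a32 exceeded the Cyp4a12 pair 23.8, 19.6 and 10.03 times in KO livers, against 4.16, 1.04 and 2.59 times in WT livers. The mean log2 ratio differed by 2.88 between KO and WT livers, a 7.37-fold difference (exact permutation p = 0.1, the smallest possible). The Cyp4a sum over the Cyp4f sum was 6.77, 4.24 and 5.31 in KO livers, against 1.56, 0.987 and 1.496 in WT livers, a difference of 2.01 on the log2 scale (exact permutation p = 0.1). Cyp4a14 over Cyp4a10 was 1.27, 1.08 and 1.47 in KO livers, against 0.837, 0.531 and 0.704 in WT livers (exact permutation p = 0.1). In FPKM, Cyp4a14 was therefore the higher of the 2 in each KO library and the lower in each WT library. That order depends on gene length, since WT replicate 1 had 7996 reads of Cyp4a14 and 7985 of Cyp4a10. The single Cyp4a10 value is also uncertain because of its copies. The groups did not overlap in any of these 3 ratios. Each ratio holds the called members Cyp4a10 and Cyp4a14, so the ratios are not separate support.

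**Figure D4:**
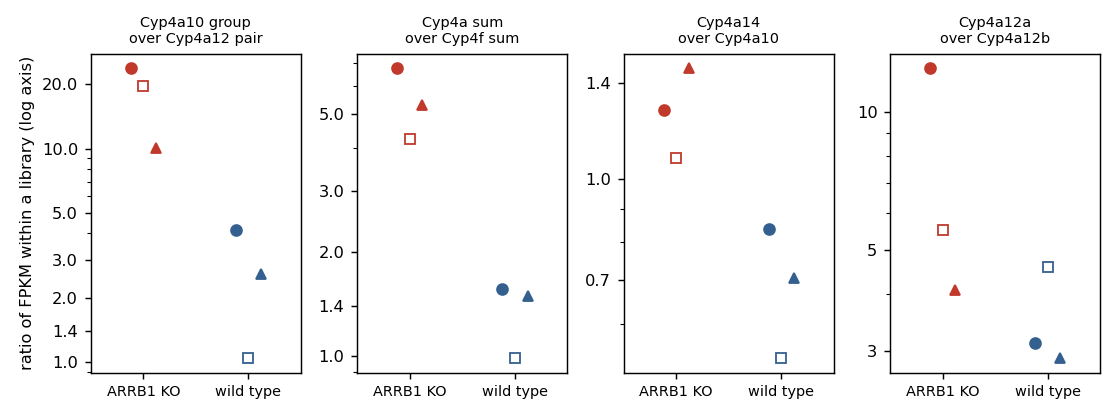
Ratios of FPKM within a library (log axes, a scale for each panel) in ARRB1 KO (red, left) and WT (blue, right), with 1 symbol per replicate. KO and WT are separate in the first 3 panels and overlap in Cyp4a12a over Cyp4a12b, where KO ranges from 4.09 to 12.5 and WT from 2.89 to 4.59.

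Partners of the pathway were read from the same limma fit. Of 14 listed genes that act with or directly after the omega-hydroxylases, 12 were tested and 1 rose, beside 5.30% of all tested genes. This was Aldh3a2, the fatty aldehyde dehydrogenase, with 192, 285 and 232 FPKM in KO livers, against 95.7, 68.0 and 82.8 FPKM in WT livers (log2 fold change 1.51, limma adjusted p = 0.00554). None of the 12 was called lower in limma, by voom on recovered reads or at an unadjusted p under 0.05, where the counts were 0 each. Por, the electron donor of microsomal P450s, had 71.5, 57.4 and 38.8 FPKM in KO livers, against 43.5, 74.9 and 46.4 FPKM in WT livers (log2 fold change 0.03, limma adjusted p = 0.963). Slc27a2, a very long-chain acyl-CoA synthetase and transporter, had a log2 fold change of 0.38 (limma adjusted p = 0.0816), and Cyb5b, a cytochrome b5, one of -0.20 (limma adjusted p = 0.228). The list's median log2 fold change was 0.10, close to the 0.07 of all tested genes.

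Of the 16 genes of peroxisomal breakdown of dicarboxylic and long-chain acids, 16 were tested and 8 rose, beside 5.30% of all tested genes. The median log2 fold change was 0.48. Pex11a, a peroxisome division factor, had 53.8, 72.6 and 52.3 FPKM in KO livers, against 32.4, 21.1 and 27.2 FPKM in WT livers (log2 fold change 1.12, limma adjusted p = 0.0164). Hsd17b4, the D-bifunctional protein, rose by 0.62 (limma adjusted p = 0.0173) and the thiolase gene Acaa1a by 0.51 (limma adjusted p = 0.0179) on the log2 scale. None was called lower by limma, where 1 gene had an unadjusted p under 0.05 in that direction and voom called 1. The 8 became 5 without KO replicate 1, 4 without KO replicate 3, 4 without WT replicate 3, 0 without KO replicate 2 or WT replicate 2, 5 with median-of-ratios scaling and 1 without the filter. Pex11a, Hsd17b4 and Acaa1a each lost their call without KO replicate 2 and without WT replicate 2.

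The list of PPAR-alpha, its partners and its targets outside the Cyp4 family held 28 genes. Of these, 24 were tested and 11 rose (median log2 fold change 0.59), beside 5.30% of all tested genes. Cd36, the fatty acid uptake receptor, had 92.2, 108 and 89.3 FPKM in KO livers, against 25.6, 14.5 and 17.3 FPKM in WT livers (log2 fold change 2.31, limma adjusted p = 0.00176). Vnn1, a pantetheinase, rose by 1.87 (limma adjusted p = 0.00605) and Mgll, monoacylglycerol lipase, by 1.45 (limma adjusted p = 0.00554) on the log2 scale. Ppara itself, named here after its values were seen, had 57.3, 69.6 and 57.9 FPKM in KO livers, against 45.2, 37.1 and 34.2 FPKM in WT livers (log2 fold change 0.66, limma adjusted p = 0.0275). None of the 24 was lower in limma, by voom or at an unadjusted p under 0.05 (0 each). Of the 24, 22 had a log2 fold change above 0, but those beyond the 11 were not called. Uncalled genes included Fgf21 (0.46, limma adjusted p = 0.447), Fabp1 (0.33, limma adjusted p = 0.415) and Pdk4 (-0.8, limma adjusted p = 0.568). The 11 became 4 without KO replicate 2, 6 without KO replicate 3, 7 without WT replicate 1, 3 without WT replicate 2 and 3 without the filter.

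Genes known for sex-biased expression in mouse liver were listed because Cyp4a12a and Cyp4a12b belong to the male-biased class. Of 17 male-biased genes outside the members, 17 were tested and 11 fell, beside 1.60% of all tested genes. The number that rose was 0 (0 also by voom and at an unadjusted p under 0.05). The median log2 fold change was -1.46. The 3 with the smallest p were Mup21, a major urinary protein (-2.29, limma adjusted p = 0.00176), Serpina1e, an alpha-1-antitrypsin copy (-4.55, limma adjusted p = 0.0043), and Hsd3b5, a steroid dehydrogenase (-4.65, limma adjusted p = 0.00554). Hsd3b5 had 5.86, 1.60 and 12.7 FPKM in KO livers, against 117, 179 and 178.5 FPKM in WT livers, with KO replicate 3 the highest KO library as for Cyp4a12a and Cyp4a12b. The 11 became 6 without KO replicate 1, 5 without KO replicate 2, 7 without WT replicate 1, 4 without WT replicate 2, 6 without WT replicate 3 and 3 without the filter. Mup21 and Serpina1e belong to families of near-identical copies, so their single values are uncertain.

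Of 17 female-biased genes, 6 passed the filter and 3 were called higher, beside 5.30% of all tested genes. However, 2 of the 3 had to differ, since they passed the filter only through their KO libraries. Cyp2b9 had 113, 73.5 and 44.6 FPKM in KO livers, against 2.48, 0.273 and 0.614 FPKM in WT livers (log2 fold change 5.24, limma adjusted p = 0.00176). The 2 are Cyp2b13, at 3.81 ± 2.68 FPKM in KO livers and 0.0105 ± 0.00909 FPKM in WT livers, and Cyp2a4, at 2.89 ± 2.08 FPKM in KO livers and 0.108 ± 0.0257 FPKM in WT livers (SD, n = 3 each). Their log2 fold changes depend on the scale at such levels, being 2.09 on log2(FPKM + 1) and 7.37 by voom for Cyp2b13, and 1.68 and 4.52 for Cyp2a4. Both have close copies. The 3 became 1 without KO replicate 2, without WT replicate 1, 2 or 3 and without the filter, and 5 without KO replicate 3. Growth hormone signalling is the pathway that sets sex-biased expression in mouse liver. Among 13 tested genes of this pathway, 1 rose and 0 fell, beside 5.30% and 1.60% of all tested genes. This was the transcription factor Stat5a, with 8.21, 10.2 and 8.80 FPKM in KO livers, against 6.29, 5.06 and 4.74 FPKM in WT livers (log2 fold change 0.66, limma adjusted p = 0.0232). It was not called without KO replicate 2 or 3, WT replicate 2 or 3, or the filter. At an unadjusted p under 0.05, 1 gene of this list was lower, the receptor gene Ghr (-0.32, limma adjusted p = 0.0878), and voom called 0 lower. Stat5b, the main mediator of growth hormone in male liver, had a log2 fold change of 0.20 (limma adjusted p = 0.213).

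**Figure D5:**
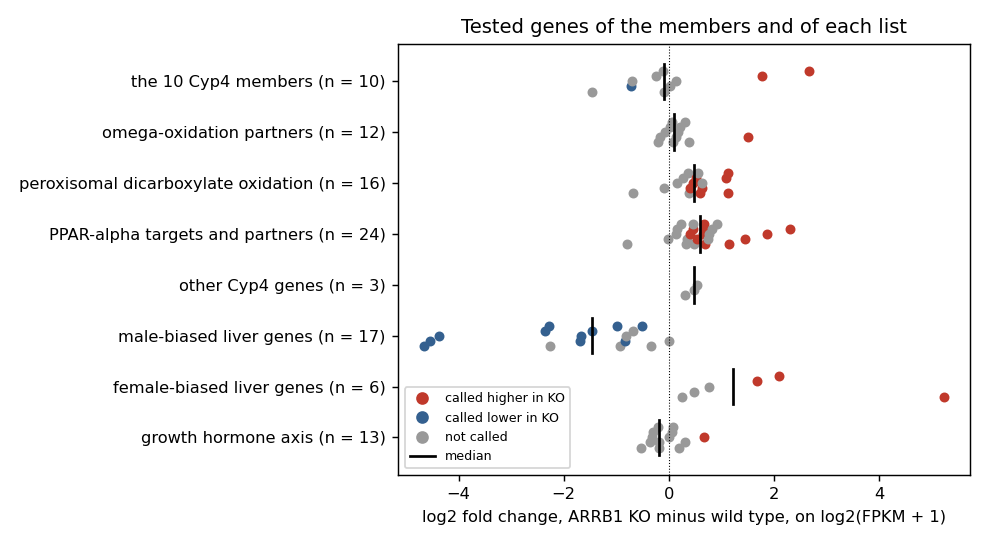
Log2 fold change, ARRB1 KO minus WT, on log2(FPKM + 1) for each tested gene of the Cyp4 members and of the 7 gene lists, with called genes coloured and a black line at each median. The medians are 0.48 and 0.59 in the peroxisomal and PPAR-alpha lists and -1.46 in the male-biased list, beside -0.10 for the 10 members.

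Of 12 further Cyp4 genes in the table, 3 passed the filter, and none was called. Cyp4b1, which lies next to the Cyp4a cluster, had 13.8, 16.8 and 12.8 FPKM in KO livers, against 11.1, 10.5 and 8.64 FPKM in WT livers. Its log2 fold change was 0.48 (limma adjusted p = 0.0686). Cyp4f17 had a log2 fold change of 0.31 (limma adjusted p = 0.284). Cyp4f16, at 1.58 ± 0.494 FPKM in KO livers and 0.767 ± 0.172 FPKM in WT livers (SD, n = 3 each), passed the filter only through its KO libraries. Its log2 fold change was 0.53 on log2(FPKM + 1) (limma adjusted p = 0.0971) and 1.09 by voom. At an unadjusted p under 0.05, Cyp4b1 and Cyp4f16 were higher, and voom called 0 of the 3.

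Other neighbours of the members were also examined. Within 200 kb of the Cyp4a members, 3 genes were tested and 0 were called, with 1 under an unadjusted p of 0.05 (Cyp4b1) and 0 by voom. Around the Cyp4f members 4 were tested and 0 called, with 1 under an unadjusted p of 0.05 (Cyp4f16) and 0 by voom. Near Cyp4v3, 5 were tested and 1 fell, beside 1.60% of all tested genes. There, 2 were lower at an unadjusted p under 0.05 and 2 lower by voom. The called gene was Klkb1, which encodes plasma kallikrein, with 59.6, 55.5 and 59.0 FPKM in KO livers, against 72.1, 81.7 and 77.7 FPKM in WT livers (log2 fold change -0.40, limma adjusted p = 0.0347). F11, coagulation factor XI, had a log2 fold change of -0.66 (limma adjusted p = 0.0585).

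The genes with profiles closest to Cyp4a14 over the 6 libraries were found by the root-mean-square difference of log2(FPKM + 1) after centring each gene on its own mean. They were Wfdc2 (0.348), Apoa4 (0.382), Cyp4a10 (0.497), Plin4 (0.503) and Vnn1 (0.554), where the Cyp4a14 profile itself had a root mean square of 1.47. In each of the 5, WT replicate 2 was the lowest library, as it was for Cyp4a14. Closest to Cyp4a12a were Slc38a2 (0.207), Gm31583 (0.227), Igfbp2 (0.232), Ccnl1 (0.255) and Sult5a1 (0.284), with a root mean square of 0.608 for Cyp4a12a. In these 5, KO replicate 3 was the highest KO library. These are descriptions over 6 libraries and carry no test. The genes were picked for likeness over the same libraries, so the shared lowest or highest library largely follows from that choice.

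The DR1 element bound by PPAR-alpha with RXR was sought as AGGTCANAGGTCA on both strands of RefSeq promoters (GRCm38.p6, 250 bases before to 50 after the start). The table held promoters of 5 members, Cyp4a32, Cyp4f13, Cyp4f14, Cyp4f15 and Cyp4v3. None of their 8 promoters held the motif with up to 2 mismatches, which 3.86% of all 32851 promoters did. At so low a rate, a set this small would mostly hold no match, so the search cannot decide whether the members lack the element. Promoters of Cyp4a10 and Cyp4a14, the members called higher, were not available and were not examined. The fewest mismatches were 3 in Cyp4a32 and Cyp4v3, 4 in Cyp4f14 and Cyp4f15 and 5 in Cyp4f13.

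In bulk liver RNA, fewer cells of a type and less RNA per cell cannot be told apart. Hepatocyte markers summed to 42010 to 49160 FPKM in KO livers and 43730 to 52690 FPKM in WT livers. The 4 kidney markers were at 0. Markers of other liver cell types, given below, were also detected. The markers therefore do not show that the samples held hepatocytes alone. Of the 10 hepatocyte markers 2 were called lower in KO livers. This and the following marker counts stand beside 5.30% of all tested genes called higher and 1.60% called lower. The pericentral zone is where Cyp4a10 and Cyp4a14 are normally highest. Genes of pericentral hepatocytes summed to 5042 to 6797 FPKM in KO livers and 4416 to 5569 FPKM in WT livers, with 1 of 8 called higher. At an unadjusted p under 0.05, 2 of these 8 were higher and 2 lower, beside 19.1% and 6.19% of all tested genes. Genes of periportal hepatocytes summed to 1194 to 1288 FPKM in KO livers and 1517 to 1834 FPKM in WT livers, with 3 of 6 called lower. For these 6, the unadjusted counts were 0 higher and 4 lower. Macrophage markers summed to 226 to 273 FPKM in KO livers and 208 to 229.5 FPKM in WT livers (1 of 12 higher, 1 lower), stellate markers to 148 to 212 FPKM in KO livers and 130 to 153 FPKM in WT livers (2 of 9 higher), and endothelial markers to 99.8 to 112 FPKM in KO livers and 86.8 to 99.8 FPKM in WT livers (2 of 7 higher). Cholangiocyte markers summed to 36.9 to 97.9 FPKM in KO livers and 30.0 to 60.6 FPKM in WT livers, neutrophil markers to 3.39 to 5.58 FPKM in KO livers and 1.76 to 4.72 FPKM in WT livers, and lymphocyte markers to 1.43 to 3.05 FPKM in KO livers and 0.972 to 1.84 FPKM in WT livers. The part of these differences in the results on the Cyp4 members was not tested.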

How the data were processed

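RNA-seq was made from mouse liver, with 3 ARRB1 knockout and 3 wild-type libraries. Trizol extraction was followed by TruSeq library preparation on 1 ug of total RNA, per the labels' protocols. The authors deposited FPKM values per gene symbol. The submitters' processing notes name the aligners Bowtie 0.12.2 and HISAT2 and, as builds, mm8 and mm10. Their roles, the gene annotation, strandedness and the handling of multiply matching reads are not stated there or elsewhere in the sources. Depth was estimated from the FPKM steps: whole reads were recovered for 17549 of the 17549 genes detected in at least 4 libraries, to within 0.001 reads plus 5e-08 of the count and at most 0.05 reads. That search ran to counts so high that a match was likely for any gene, so its full share is no check. The check was a shorter search over 2000 of these genes. In it, 96.65% came out whole with the steps used and 0% with wrong steps.

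Knockout and wild-type libraries were compared on log2(FPKM + 1) by limma 3.58.1 (R 4.3.3), fitting genotype alone with trended eBayes moderation and two-sided tests. The Benjamini-Hochberg adjustment covered the 10633 genes averaging 1 FPKM or more. Fold changes are on that scale and understate changes of low genes. Sums and ratios were tested by exact two-sided permutation, which cannot go below 0.1. On simulated data for this comparison, with 10601 genes tested, 76% of genes changed 2-fold and 92% of those changed 4-fold were recovered, and 7 of 175 calls were unchanged genes. Coding sequences came from GENCODE vM21 (GRCm38) and promoters from RefSeq. Identity was computed from coding sequences in place of the proteins planned. Python 3.11.15 and Biopython 1.88 were used.

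The members and gene lists were chosen with earlier results of these data known, and the lists are not independent evidence. Genes named are the members, Arrb1, up to 3 genes with the smallest p of each list and the 5 nearest profiles of Cyp4a14 and Cyp4a12a. Por, Ppara, Fgf21, Fabp1, Pdk4 and the neighbours Klkb1 and F11 were named after their values were seen. As alternatives, the filter was dropped or set at 5 FPKM, the pseudocount was lowered to 0.1, and the fit was rerun with TPM, median-of-ratios and quantile scaling, eBayes without trend, robust eBayes, array weights, the replicate block, voom on recovered reads, summed copies and each library left out.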

Additional observations from a re-analysis of the deposited data

How the results depend on the processing

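The direction of Cyp4a10, Cyp4a14 and Cyp4f14 was the same under every alternative and with each library left out. Cyp4a12a, Cyp4a12b and Cyp4f13 stayed below 0 throughout. Of the 2 members called higher, 0 were called without the filter, 1 with robust eBayes and 0 to 2 when each library was left out. Of the 1 called lower, the count was 0 without the filter, 2 with the replicate block and 0 to 2 when each library was left out. Deviations of same-numbered KO and WT libraries had correlations of 0.17, -0.06 and 0.10, and those of differently numbered libraries ran from -0.243 to 0.125. So few libraries cannot decide whether the numbers pair them. With the replicate block, Cyp4a12b was called lower (adjusted p = 0.0356). The cause of these changes was not tested. Without the filter, more genes are tested and the variance moderation is fitted over them too, and these effects were not separated.

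Over all genes, the 564 called higher became 88 without the filter, 990 on the TPM scale, 346 with median-of-ratios scaling, 371 with quantile normalization, 280 with the replicate block and 94 to 422 when each library was left out. The 170 called lower became 58 without the filter and 54 to 119 with each library left out. The share of calls that were higher was 76.84%, against 85.2% on the TPM scale (990 higher and 172 lower), 59.86% with median-of-ratios scaling (346 and 232) and 64.52% with quantile normalization (371 and 204). The median log2 fold change of all tested genes was 0.07, 0.13 on the TPM scale and -0.01 with either other scaling.

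The 8 peroxisomal genes called higher became 1 without the filter, 5 with median-of-ratios scaling, 2 with the replicate block and 0 to 6 with each library left out. Lower calls in that list went to 1 with a filter at 5 FPKM, TPM, median-of-ratios, quantile, the replicate block and voom, and 0 to 1 with each library left out. The 11 of the PPAR-alpha list became 3 without the filter, 6 with the replicate block (1 lower) and 3 to 10 with each library left out. Omega-oxidation partners called higher were 2 on the TPM scale. Further Cyp4 genes called higher were 1 on the TPM scale. The 11 male-biased genes became 3 without the filter and 4 to 11 with each library left out. The 3 female-biased genes became 1 without the filter, 1 with a filter at 5 FPKM and 1 to 5 with each library left out. The growth hormone gene was called 0 times without the filter and with the replicate block, and 0 to 1 times with each library left out.

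Leaving out each library gave log2 differences of 1.23 to 1.70 for the summed Cyp4a10 copies, -1.26 to -0.54 for the summed Cyp4a12 pair, 2.33 to 3.33 for the Cyp4a10 group over the Cyp4a12 pair and 1.80 to 2.18 for the Cyp4a sum over the Cyp4f sum. Signs changed in 4 members, none of them called. Cyp4f15 was 0.0122 with array weights and -0.2763 to 0.0012 with each library left out. Cyp4v3 was -0.0858 with median-of-ratios scaling and -0.0449 to 0.108 with each library left out. Leaving out each library gave -0.0714 to 0.251 for Cyp4a31 and -0.169 to 0.0483 for Cyp4a32. Depth limits Cyp4a12b and Cyp4a31 most, with as few as 100 and 155 reads in KO replicate 1.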
